A study of Mus musculus with 6 samples.

Results

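Metallothioneins and zinc transporters were followed in the atria of obese and lean mice through 10 genes: the metallothioneins Mt1, Mt2 and Mt3, the transcription factor Mtf1, the zinc exporters Slc30a1 and Slc30a4, and the zinc importers Slc39a8, Slc39a10, Slc39a13 and Slc39a14. The genes were taken by name from the 43432 gene identifiers in the deposited RNA-sequencing table, and they were selected on their normalized counts and fold changes in the same obese against lean comparison, so their values are given as a description and not as a test. Wild-type C57/Bl6J mice received a high-fat diet (HFD; obese, n = 3) or control chow (lean, n = 3) from 6 weeks of age for 10 weeks, and RNA was made from right and left atrial tissue. Each library is a different mouse, and the groups share strain, genotype, age and tissue. The titles of the samples and the columns of the table agree on the diet of each library, whereas a further label, treatment, contradicts them in all 6 libraries. The titles were followed, and every direction below rests on that choice.

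Metallothioneins are small cysteine-rich proteins that bind zinc and copper in the cytosol and are known for their protection of the heart against oxidative stress. When free zinc rises, the zinc-finger protein MTF1, encoded by Mtf1, binds metal response elements (MREs) in the promoters of Mt1, Mt2 and Slc30a1, and glucocorticoids and interleukin-6 are also known inducers of Mt1 and Mt2. Zinc leaves the cytosol, out of the cell or into organelles, through SLC30 (ZnT) proteins and enters it through SLC39 (ZIP) proteins.

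The levels are normalized counts, which are reads divided by a size factor for each library, so that a single read is worth 0.684 to 1.14 of them. Libraries held 15874251 to 28971508 reads, and the members were covered by 105 to 4046 reads in each mouse. Of the 15275 genes that averaged 10 normalized counts or more, 114 (0.746%) passed the test across all genes (limma on log2(normalized count + 1), Benjamini-Hochberg adjusted p under 0.05), 74 higher (0.484%) and 40 lower (0.262%) in obese atria. Such genes are named called genes here. Atrial myocyte markers were abundant in each library, with a sum of 290364 to 525029 normalized counts over 6 genes. Lean mouse 2 stood apart by its depth, the largest of the 6, by its share of reads from mitochondrial genes (30.7%, against 19.5% to 24.4% in the others) and by its ventricular myocyte markers (17399, against 6882 to 9866). Obese mice 1 and 2 stood apart by lower atrial myocyte markers (290364 and 291350). Obese mouse 3 was at 525029 and the lean mice at 446328 to 486997.

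The promoters of Mt2, Mt1, Mt3 and Slc30a1 are shown because Mt2 and Mt1 were called, Mt3 lies between Mt4 and Mt2 in the same cluster, and Slc30a1 is the exporter known as an MTF1 target. Each run holds the 250 bases before the gene start in RefSeq (GRCm38.p6, plus strand, 5′ to 3′). Capitals mark MRE cores, searched as TGCACNC or TGCGCNC on both strands.

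Mt2, chr8:94172368-94172617: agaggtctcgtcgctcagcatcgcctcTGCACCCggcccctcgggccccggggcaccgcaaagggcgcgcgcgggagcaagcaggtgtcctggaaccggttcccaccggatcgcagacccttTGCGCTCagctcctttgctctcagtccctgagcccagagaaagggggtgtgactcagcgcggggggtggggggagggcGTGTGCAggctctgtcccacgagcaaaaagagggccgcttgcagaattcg
Mt1, chr8:94178839-94179088: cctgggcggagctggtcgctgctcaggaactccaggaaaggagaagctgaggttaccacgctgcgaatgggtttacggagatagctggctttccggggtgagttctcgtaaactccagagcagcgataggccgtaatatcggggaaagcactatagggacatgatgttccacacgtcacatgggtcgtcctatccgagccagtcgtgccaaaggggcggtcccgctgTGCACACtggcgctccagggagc
Mt3, chr8:94152357-94152606: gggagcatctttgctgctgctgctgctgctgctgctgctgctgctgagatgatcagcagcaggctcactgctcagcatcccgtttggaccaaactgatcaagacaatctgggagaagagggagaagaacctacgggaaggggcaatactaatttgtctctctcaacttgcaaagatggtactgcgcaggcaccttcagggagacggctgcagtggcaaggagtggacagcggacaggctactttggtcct
Slc30a1, chr1:191906531-191906780: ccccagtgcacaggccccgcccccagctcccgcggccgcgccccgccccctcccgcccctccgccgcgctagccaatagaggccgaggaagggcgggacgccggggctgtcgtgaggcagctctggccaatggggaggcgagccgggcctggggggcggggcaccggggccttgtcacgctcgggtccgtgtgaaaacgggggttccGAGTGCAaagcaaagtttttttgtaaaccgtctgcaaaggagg

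The Mt2 window held 3 MRE cores, the Mt1 window 1, the Slc30a1 window 1 and the Mt3 window 0. Among 32851 RefSeq promoter windows of the same length, 21.4% held at least 1 core and 1.26% held 3 or more. Within the 4 printed windows, the antioxidant response element TGACNNNGC occurred once in Mt2 (as TGACTCAGC), with no overlap with its MRE cores. It also occurred once in Slc30a1 (as GCCTTGTCA on the printed strand), and it was found in 10.2% of all windows. The core TGTTCT of the glucocorticoid response element was found in none of these 4 windows on either strand and in 16.1% of all windows. The annotated starts of Mt1 and Mt2 lie 121 and 135 bases upstream of a TATAAA box in their first exon. The printed windows of Mt1 and Mt2 therefore end before that box, and the counts given for them do not cover the bases next to it. Between the start and that box each gene held 4 further MRE cores. That stretch was searched only for MRE cores and the TATAAA box. Whether it holds the antioxidant or the glucocorticoid element was not tested. The MRE core nearest to the box is shown for both genes, at 117 bases (Mt1) and 112 bases (Mt2) before the start codon.

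Mt1, chr8:94179176-94179204: tgcaaacccttTGCGCCCggactcgtcca
Mt2, chr8:94172718-94172746: ggcggagctttTGCGCTCgacccaatact

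A match to these letters is a description of the sequence and was not measured as a bound site.

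Mt2 and Mt1 were higher in all 3 obese mice than in any lean mouse, and Mt3 was not. Values are given below for mice 1, 2 and 3 of a diet in that order. Mt2 was at 1075, 1061 and 722 normalized counts in the obese mice, against 171, 137 and 115 in the lean mice. The groups were far apart, with the lowest obese mouse at 722 and the highest lean mouse at 171. Its mean was 953 ± 199.5 (SD, n = 3) in obese and 141 ± 28.5 (SD, n = 3) in lean atria, a ratio of 6.76 and a log2 fold change of 2.74 ± 0.20 (SE). Mt1 was at 4064, 3169.6 and 2272 normalized counts in the obese mice, against 1482, 1122 and 879.9 in the lean mice. These groups did not overlap either. Mt1 averaged 3169 ± 896 (SD, n = 3) in obese and 1162 ± 303 (SD, n = 3) in lean atria, a ratio of 2.73 and a log2 fold change of 1.44 ± 0.23 (SE). In bulk tissue, more RNA per cell and more cells of a type that expresses the gene cannot be told apart.

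Mt3, a metallothionein best known from brain, was at 260.2, 257 and 196 normalized counts in the obese mice, against 361, 266 and 227 in the lean mice. The groups overlapped, with a log2 fold change of -0.24 ± 0.20 (SE), and it was not called. Mt4, known from stratified epithelium, had 0 reads in all 6 libraries, which allows a level of up to 2.05 to 3.41 normalized counts per library (3 reads). Mt1, Mt2 and Mt3 put the 3 mice of each diet in the same order, with the highest value in mouse 1 and the lowest in mouse 3 for both diets.

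**Figure D1:**
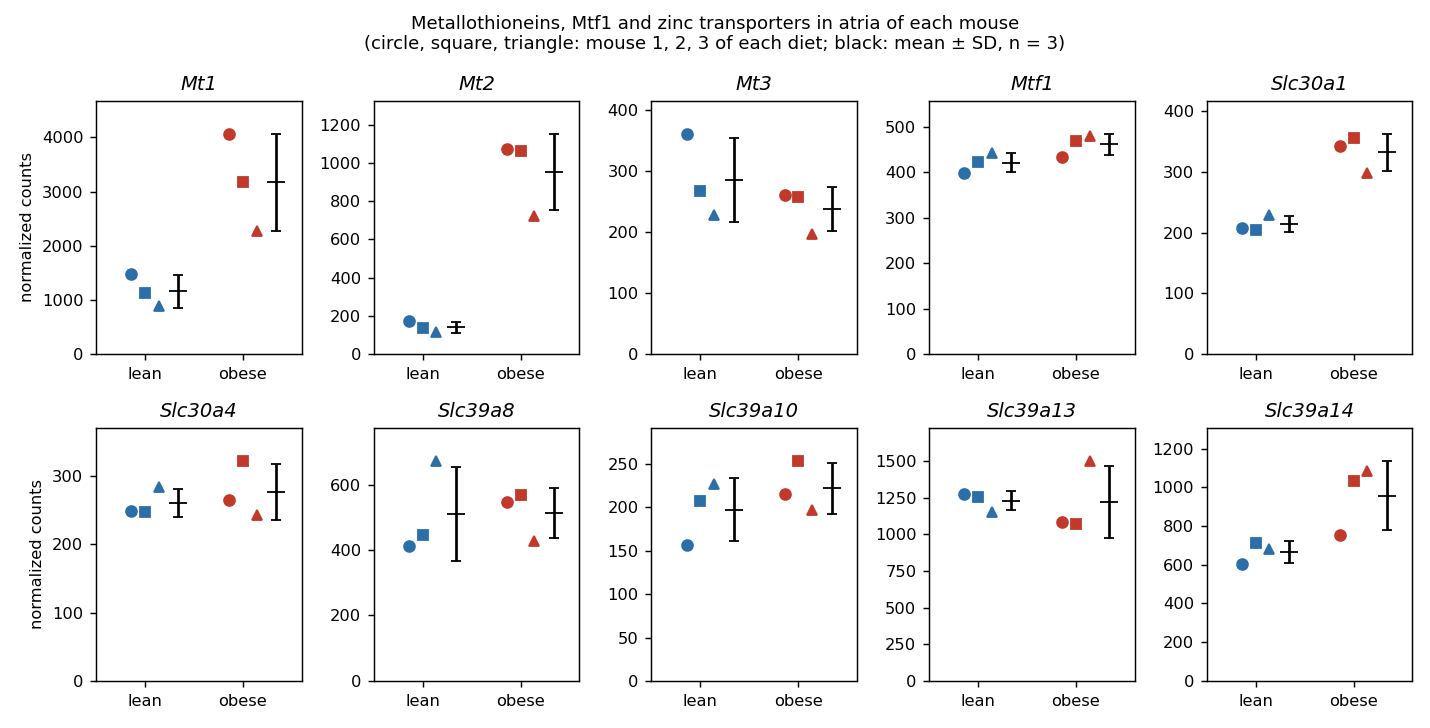
Normalized counts (y axis, from 0) of the 10 genes in each lean (blue) and obese (red) mouse, 1 panel per gene, where symbols mark mouse 1, 2 and 3 of a diet and black bars the mean ± SD (n = 3). Obese mice lie above lean mice without overlap for Mt1, Mt2, Slc30a1 and Slc39a14, and the other 6 panels overlap.

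Of the 10 genes, Mt1 and Mt2 were called (2 of 10, beside 0.746% of all tested genes), both higher in obese atria. Obese and lean mice did not overlap for 4 of the 10, all with obese higher, beside 8.86% of all tested genes (9.17% with obese lower, 18% in either direction). The genes were listed with this contrast known, so nothing is read from either count. The median log2 fold change of the 10 was 0.16, beside 0.0049 over all tested genes, and 8 of the 10 were above 0. Mt2 was called in each of the 6 fits that left out 1 mouse, with a log2 fold change of 2.61 to 2.93. Mt1 was called without lean mouse 1 (1.63) and without obese mouse 3 (1.66), and its call was lost without lean mouse 2 (1.43), lean mouse 3 (1.26), obese mouse 1 (1.24) or obese mouse 2 (1.42). Neither was called when limma was fitted without a variance trend, where 0 of all genes passed (1717 at an unadjusted p under 0.05). edgeR and DESeq2 on the recovered reads called both, at 1.45 for Mt1 and 2.76 for Mt2 with each tool.

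The makeup of the metallothionein RNA differed between the diets along with its amount. Mt2 gave 20.9%, 25.1% and 24.1% of the summed Mt1 and Mt2 counts in the obese mice, against 10.4%, 10.9% and 11.5% in the lean mice. These shares come from within a library and do not depend on its size factor. Relative to Mt3, Mt2 was at 3.68 to 4.13 in obese and 0.475 to 0.514 in lean mice, and Mt1 was at 11.6 to 15.6 in obese and 3.87 to 4.22 in lean mice. The spread of Mt2 among mice of a diet was thus smaller relative to Mt3 than as a level. Per kb of transcript, the metallothioneins summed to 9992, 8329 and 5918 normalized counts in the obese mice, against 3708, 2809 and 2252 in the lean mice.

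Markers of fat cells were measured in the same libraries and moved with the metallothioneins in part. The 7 white adipocyte markers summed to 12538, 7530 and 6593 normalized counts in the obese mice, against 6974, 5403 and 3517 in the lean mice, which is the same order of mice within each diet as for Mt1, Mt2 and Mt3. In the obese mice that order rested on Fabp4, a fatty acid carrier also found in endothelium, which held most of the sum. Without Fabp4 the other 6 markers summed to 3718, 1257 and 1519 in the obese mice, against 2747, 1235 and 568 in lean mice, and the order of obese mice 2 and 3 was turned. Both sums overlapped between the diets. By limma and edgeR 0 of the 7 markers were called (1 at an unadjusted p under 0.05). By DESeq2, by limma without obese mouse 3 and by limma with the mouse number as a block, 1 was called. None was at 0 in all mice, and the smallest p was that of Fabp4 (log2 fold change 0.81 ± 0.20, limma adjusted p = 0.108). The median log2 fold change of the 7 was 0.64, with 6 above 0. Lep went the other way (-1.41 ± 0.79, limma adjusted p = 0.526). The part of fat cells in the metallothionein values was not tested.

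**Figure D2:**
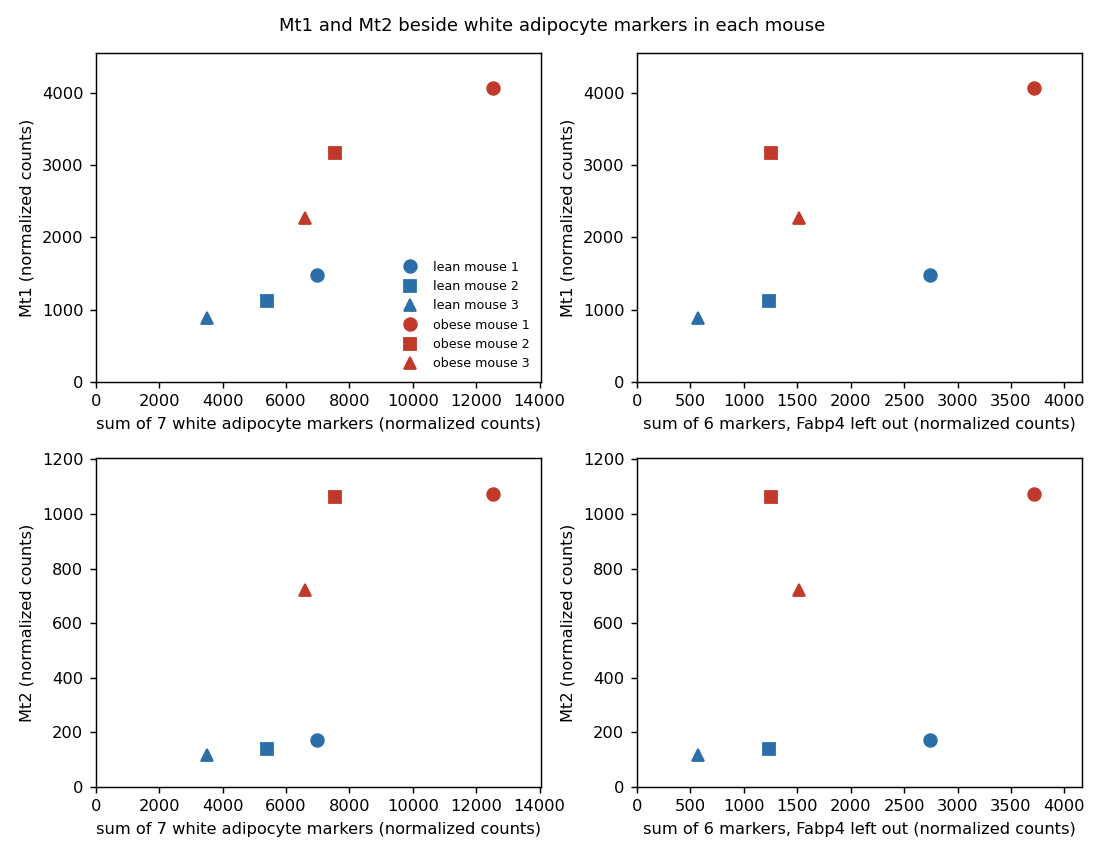
Mt1 (top) and Mt2 (bottom), in normalized counts, against the sum of 7 white adipocyte markers (left) and of the 6 without Fabp4 (right), in normalized counts, where each point is a mouse (blue lean, red obese, symbols as mouse 1, 2 and 3). On the x axis of the left panels the diets overlap (6593 to 12538 in obese and 3517 to 6974 in lean mice), and on the y axes they do not.

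Brown adipocyte markers were called for 2 of 3 tested genes, Cidea (1.21 ± 0.21, limma adjusted p = 0.0310) and Ucp1 (4.43 ± 0.83, adjusted p = 0.0446), and the 4 markers summed to 1283, 616 and 1276 normalized counts in obese and 330.3, 239 and 187 in lean mice. The number called was 1 with edgeR, 3 with DESeq2, 3 with the mouse number as a block, 1 with at least 10 normalized counts in every mouse and 0 without a variance trend. With 1 mouse left out it was 3 without obese mouse 3, 1 without lean mouse 1 or obese mouse 2 and 0 without lean mouse 2, lean mouse 3 or obese mouse 1. The summed values of the diets did not overlap. Summed endothelial markers (14017 to 15687 in obese, 11650 to 12448 in lean mice), macrophage markers (6583 to 7164 and 4891 to 6214), neutrophil markers (53.0 to 82.4 and 30.2 to 38.3), and smooth muscle and pericyte markers (9948 to 10323 and 8408 to 9433) did not overlap either. Summed fibroblast markers (31294 to 32698 and 31128 to 36489), mesothelial markers (1144 to 1780 and 1161 to 1811) and T and B lymphocyte markers (19.4 to 30.7 and 19.7 to 29.1) overlapped. These sums are weighted to their most abundant genes. Gene by gene, obese mice lay above lean mice without overlap for 2 of 5 endothelial and 2 of 6 macrophage markers. For smooth muscle and pericyte markers it was 0 of 4, beside 8.86% of all tested genes. Cdh5 of endothelium overlapped between the diets (0.04 ± 0.11, limma adjusted p = 0.934). None of the markers in these lists was at 0 in all mice. Of the 4 neutrophil markers 1 reached the mean needed for a test, and of the 4 T and B lymphocyte markers 0 did. By limma and edgeR 0 of the tested genes in all these lists were called. The unadjusted limma p was under 0.05 for 1 endothelial, 3 macrophage, 1 neutrophil and 1 mesothelial gene. By DESeq2, by limma without obese mouse 3 and by limma with at least 10 normalized counts in every mouse, 1 endothelial gene was called. The smallest p of each list with a tested gene belonged to Pecam1 of endothelium (0.57 ± 0.11, limma adjusted p = 0.0504), C1qb of macrophages (0.42 ± 0.16, 0.308), Csf3r of neutrophils (0.71 ± 0.31, 0.389), Acta2 of smooth muscle (0.54 ± 0.25, 0.413), Krt19 of mesothelium (0.59 ± 0.26, 0.406) and Tcf21 of fibroblasts (-0.23 ± 0.16, 0.620). In the atrial and ventricular myocyte lists, where 0 genes were called by limma, edgeR or DESeq2 and 2 and 1 by limma without obese mouse 3, they were Myl7 (-0.66 ± 0.25, 0.317) and Myh7 (-0.41 ± 0.16, 0.334). The part of these cell types in the metallothionein values was not tested.

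Mtf1, which encodes the metal-sensing factor itself, was at 435, 470.1 and 479 normalized counts in the obese mice, against 399.7, 422 and 442 in the lean mice. Obese mouse 1 lay below lean mouse 3, so the groups overlapped. The log2 fold change was 0.13 ± 0.12 (SE), and it was not called. This describes RNA, and the activity of MTF1 was not measured. Of 4 other genes linked to MTF1, 0 were called by limma, edgeR or DESeq2, 0 had an unadjusted p under 0.05, and the median log2 fold change was 0.17. The smallest p among them was that of Selenow, a selenoprotein, at -0.26 ± 0.15 (limma adjusted p = 0.520).

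Slc30a1, the plasma membrane exporter ZnT1, was at 343, 356 and 298 normalized counts in the obese mice, against 208, 205 and 229.5 in the lean mice. The groups did not overlap, and the spread within a diet was small. It averaged 332 ± 30.6 (SD, n = 3) in obese and 214 ± 13.5 (SD, n = 3) in lean atria, a ratio of 1.55 and a log2 fold change of 0.63 ± 0.15 (SE). It was not called by limma or edgeR, and it was called by DESeq2 (0.63) and by limma without obese mouse 3 (0.70). Slc30a4, the exporter ZnT4 of intracellular vesicles, was at 264, 322 and 243 normalized counts in the obese mice, against 249, 248 and 284 in the lean mice. The groups overlapped (0.08 ± 0.16), and its sign turned without obese mouse 2 (-0.03).

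Slc39a14, the importer ZIP14 of zinc, manganese and iron, was at 751, 1035 and 1086 normalized counts in the obese mice, against 604, 711 and 681 in the lean mice. The groups did not overlap, but obese mouse 1 lay much closer to the lean mice than to the other obese mice. It averaged 957 ± 180.2 (SD, n = 3) in obese and 665 ± 55.5 (SD, n = 3) in lean atria, a ratio of 1.44 and a log2 fold change of 0.51 ± 0.16 (SE), and it was not called in any of the 16 fits. Its order of the obese mice was the reverse of that of Mt1 and Mt2.

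Slc39a8, the related importer ZIP8, was at 546, 567 and 427 normalized counts in the obese mice, against 411, 446 and 673 in the lean mice. Both the highest and the lowest value belonged to lean mice, and the log2 fold change was 0.03 ± 0.20 (SE), with a range of -0.11 to 0.25 when 1 mouse was left out. The ratio of Slc39a14 to Slc39a8 in a library was 1.38, 1.83 and 2.54 in the obese mice, against 1.47, 1.59 and 1.01 in the lean mice. Obese mouse 1 lay among the lean mice in this ratio.

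Slc39a10, the plasma membrane importer ZIP10, was at 216, 254 and 196 normalized counts in the obese mice, against 157, 207 and 227 in the lean mice, and the groups overlapped (0.18 ± 0.19). Slc39a13, the importer ZIP13 of intracellular membranes that is known for its role in connective tissue, was at 1086, 1071 and 1504 in the obese mice, against 1279, 1258 and 1155 in the lean mice. Obese mouse 3 was above and the other obese mice were below every lean mouse, so that the log2 fold change was -0.03 ± 0.14 (SE) and was -0.19 without obese mouse 3. That mouse also held the highest atrial myocyte markers of the 6, and their part in the Slc39a13 value was not tested.

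The families outside the 10 genes held 19 further genes, of which 13 were tested and 0 were called by limma, edgeR or DESeq2. None of the 13 had an unadjusted p under 0.05, beside 12.2% of all tested genes, none separated the diets, and their log2 fold changes ran from -0.14 to 0.44 with a median of 0.09. These genes are what remained after the 10 were taken from the same families with this contrast known. Nothing is therefore read from these counts about the families. Among exporters, Slc30a5 and Slc30a6, which form a complex of the early secretory pathway, were at 0.23 ± 0.15 (adjusted p = 0.575) and -0.11 ± 0.19 (0.865) by limma. Slc30a9, a mitochondrial zinc transporter, was at -0.10 ± 0.10 (0.757), the Golgi exporter Slc30a7 at 0.02 ± 0.15 (0.979) and the vesicular exporter Slc30a2, at 17.8 to 51.0 normalized counts, at 0.39 ± 0.42 (0.762). Among importers, Slc39a6, the known partner of Slc39a10, had the highest value, 0.44 ± 0.25 (limma adjusted p = 0.527), with 186, 186 and 177 normalized counts in the obese mice, against 202, 95.8 and 125 in the lean mice. The highest of the 6 values belonged to lean mouse 1, so the groups overlapped. Slc39a7, which releases zinc from the endoplasmic reticulum, was at -0.03 ± 0.11 (0.945), and the plasma membrane importers Slc39a1 and Slc39a3 were at 0.11 ± 0.11 (0.737) and 0.08 ± 0.13 (0.860). Slc39a9 (0.22 ± 0.16, 0.635), Slc39a11 (0.09 ± 0.26, 0.928), Slc39a12 (0.19 ± 0.54, 0.930) and Slc39a2 (-0.14 ± 0.41, 0.934) completed the importers that were tested. Slc30a8 and Slc39a5 had 0 reads in all libraries, and Slc30a3, Slc30a10 and Slc39a4 stayed under the mean needed for a test, between 0 and 14.6 normalized counts in a mouse.

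**Figure D3:**
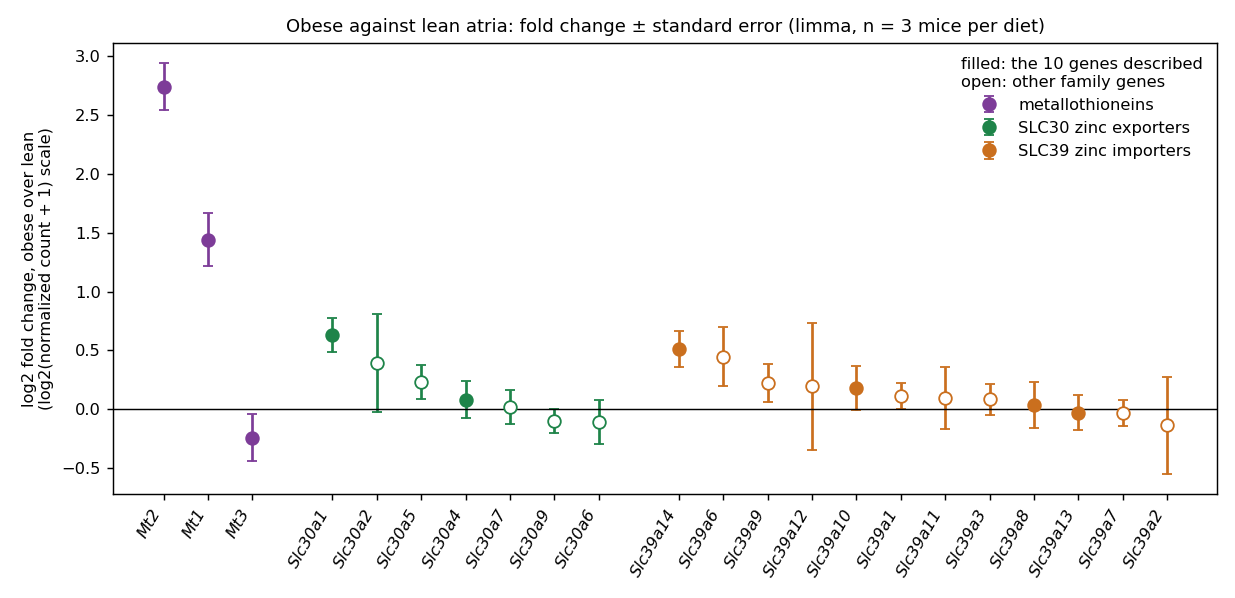
Log2 fold change of obese over lean atria (y axis, on the scale of log2(normalized count + 1)) with its standard error for the metallothioneins, SLC30 exporters and SLC39 importers that were tested (n = 3 mice per diet), where filled points are the 10 genes and open points the others of the families. Mt2 (2.74) and Mt1 (1.44) stand above every transporter, of which the highest is Slc30a1 (0.63).

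Per kb of transcript, the SLC30 genes summed to 736, 714 and 747 normalized counts in the obese mice, against 676, 685 and 766 in the lean mice. The SLC39 genes summed to 2638, 2600.4 and 2921 in the obese mice, against 2637, 2581 and 2577 in the lean mice. Both per-kb sums overlapped between the diets. Without scaling by length the SLC30 sum overlapped too (3460.3 to 3539 in obese, 3247 to 3674 in lean mice). The unscaled SLC39 sum did not (7428, 7556 and 8282 in the obese mice, against 7203, 7208 and 7293 in the lean mice). It includes Slc39a14, the only 1 of the 12 tested SLC39 genes that separated the diets. Slc39a14 was selected with this contrast known, so nothing about the family is read from the separation of this sum. Both per-kb sums were dominated by a few genes that were not called, Slc30a9 for the exporters and Slc39a7, Slc39a1 and Slc39a13 for the importers.

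Levels of different genes were compared as normalized counts per kb of the longest coding transcript. In lean atria Mt1 was at the top with 2116 ± 552 (SD, n = 3), above Slc39a7 (929.9 ± 54.3) and Slc39a1 (572 ± 21.0), and on this scale its range did not overlap with that of Slc39a7. Of the 50-base stretches of Slc39a7, 74.5% also occur in Gm20427, and of those of Slc39a1, 21.8% in Slc39a1-ps. Reads from such stretches cannot be told apart, so the levels of Slc39a7 and Slc39a1 are uncertain. Slc39a1, Mt3 (531 ± 128) and Slc39a13 (498 ± 26.7) overlapped as neighbours in the order. Mt2 followed with 276 ± 55.8, overlapping with Slc30a9 (343 ± 22.1) above it and not with Slc30a5 (156 ± 22.3) below it. In obese atria Mt2 was at 1864 ± 390.5, behind only Mt1 (5772 ± 1633) among these genes. Slc39a8 (144 ± 40.3) and Slc39a14 (135 ± 11.3) overlapped with each other in lean atria, as did Slc30a1 (40.8 ± 2.57), Slc39a6 (36.2 ± 14.1) and Slc39a10 (35.9 ± 6.62) with the next in order, while Slc30a4 (47.7 ± 3.81) lay above Slc30a1 without overlap. In obese atria Slc30a1 was at 63.3 ± 5.83 and Slc30a4 at 50.7 ± 7.51 per kb. Among all tested genes, the mean level over the 6 mice put Mt1 at percentile 98.3, Mt2 at 94.0, Slc39a13 at 86.5 and Mt3 at 86.1, and the lowest of the 10, Slc39a10, at 29.2. The length matters for Mt1. Per kb of all annotated exons, a retained intron included, Mt1 was at 932 (706 to 1190 over the mice) in lean atria and Slc39a7 at 835 (802 to 891), so that the ranges overlapped.

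**Figure D4:**
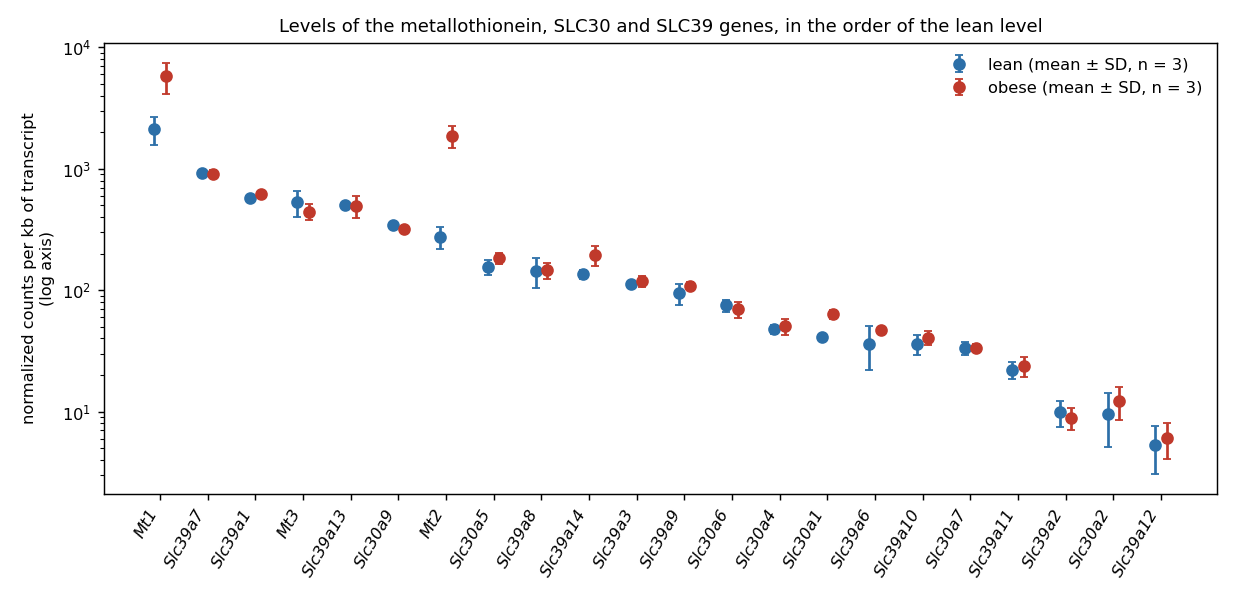
Mean ± SD (n = 3) of normalized counts per kb of transcript (log axis) in lean (blue) and obese (red) atria for the tested genes of the families, ordered by the lean level. Mt2 moves from 276 in lean to 1864 in obese atria and passes the transporters next to it, while most genes keep nearly the same level.

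The 4 metallothionein genes lie in tandem on the plus strand of chromosome 8 (GRCm38) within 43122 bases, in the order Mt4, Mt3, Mt2 and Mt1. In the deposited table Mt1 spans chr8:94179089-94180325, Mt2 chr8:94172618-94173567 and Mt3 chr8:94152607-94154148. The called pair, Mt2 and Mt1, is separated by 5521 bases, and Mt3 lies 18469 bases before Mt2. Of the other genes within 100 kb of either end of the cluster, 3 were tested and 0 were called (lowest limma adjusted p = 0.743), namely Ogfod1 (0.12 ± 0.16), Bbs2 (-0.24 ± 0.24) and Nup93 (-0.12 ± 0.16), which were chosen for their position. An antisense gene, Gm45774, covers 432 exonic bases of Mt2, and whether reads were counted by strand was not given in the sources used here. Without strand, reads of these genes cannot be told apart, while no stretch of 50 bases of Mt1 or Mt3 occurs in another transcript of GENCODE M21. Slc30a1 (chr1:191906767-191913247, plus strand) shares 468 exonic bases with the antisense gene 1700034H15Rik, and Mtf1 shares 721 with 1110065P20Rik, under the same limit.

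**Figure D5:**
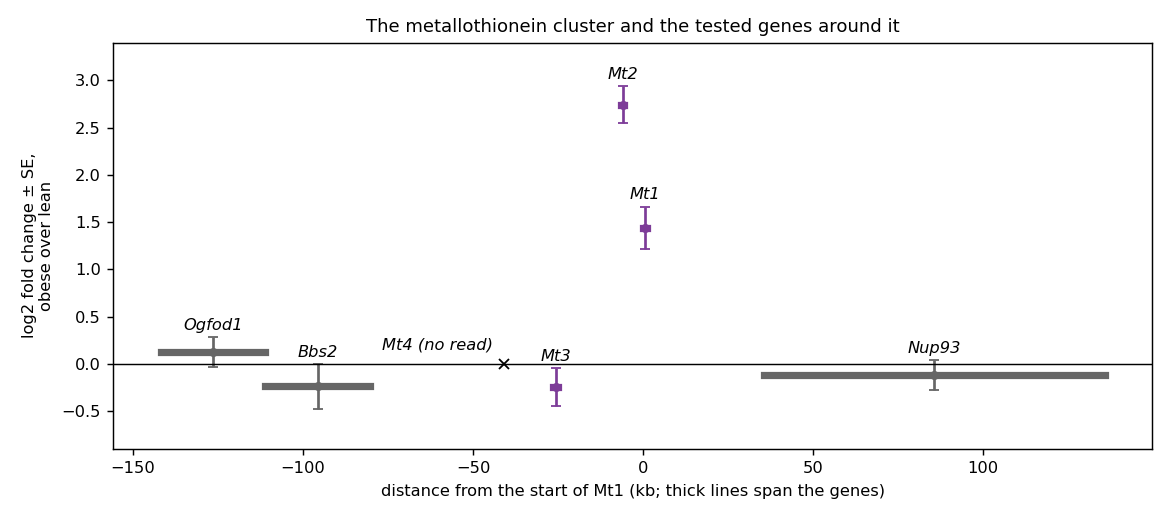
Log2 fold change ± SE of obese over lean atria (y axis) against distance from the start of Mt1 in kb (x axis), where thick lines span the metallothioneins (purple) and the other tested genes within 100 kb of either end of the cluster (grey) and a cross marks Mt4, which had no read. Mt2 (2.74) and Mt1 (1.44) stand above their neighbours, which lie between -0.24 and 0.12.

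Genes of pathways linked to metallothionein expression were described next to them. The lists of these genes were chosen with earlier results of these data known, so nothing is read from their counts. The part of these pathways in the metallothionein values was not tested. Of 9 glucocorticoid-responsive genes, 0 were called by limma or edgeR, 4 by DESeq2 and 4 by limma without obese mouse 3. By limma 2 were called with no filter on low values, 2 with at least 10 normalized counts in every mouse and 3 with the mouse number as a block. Of the 9, 7 had an unadjusted p under 0.05, beside 12.2% of all tested genes, and the median log2 fold change was 0.51. The smallest p was that of Fkbp5, a glucocorticoid-induced co-chaperone, at 1380.3, 1328 and 613 normalized counts in the obese mice, against 441, 408 and 277 in the lean mice (1.497 ± 0.291, limma adjusted p = 0.0509). Its diets did not overlap, and its order of the mice was that of Mt1 and Mt2. None of the other genes of the list gave that order in both diets. The log2 fold change was above 0 for 8 of the 9. Of 7 tested interleukin-6 and acute-phase genes, 0 were called by limma or edgeR and 4 by DESeq2. By limma 1 was called without obese mouse 3 and 1 with the mouse number as a block. Of the 7, 6 had an unadjusted p under 0.05, and the median log2 fold change was 0.60. Lcn2, an iron-sequestering acute-phase protein, was first by p (2.30 ± 0.49, limma adjusted p = 0.0657).

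Of 8 NRF2-linked antioxidant genes, 0 were called by limma or edgeR and 1 by DESeq2, 3 had an unadjusted p under 0.05 and the median log2 fold change was 0.23. The smallest p was that of the quinone reductase Nqo1, which was lower in all obese mice than in any lean mouse (169, 152 and 158 against 229.5, 259 and 245 normalized counts, -0.61 ± 0.15, limma adjusted p = 0.105). The other 7 genes of the list had log2 fold changes above 0. Copper transporters and chaperones, whose metal also binds metallothioneins, had 0 of 8 tested genes called by limma, edgeR or DESeq2, 0 at an unadjusted p under 0.05 and a median of 0.05, with the mitochondrial copper chaperone Sco1 first by p (-0.26 ± 0.16, limma adjusted p = 0.569).

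The tested genes most like Mt2 and Mt1 were found by the root mean square difference of log2 values, centred over the 6 libraries. Nearest to Mt2 were Chac1, a glutathione-degrading enzyme, at 0.24, the secreted signal Wnt9b at 0.29 and the pyruvate dehydrogenase kinase Pdk4 at 0.33, all nearer than Mt1 (0.66). Chac1 was at 343, 241 and 196 normalized counts in the obese mice, against 44.8, 52.7 and 31.7 in the lean mice. Nearest to Mt1 were Lipe, the hormone-sensitive lipase, at 0.11, the FOXO-regulated gene Depp1 at 0.11 and the inhibitory T cell receptor Ctla4 at 0.19. Lipe, which is known from fat and heart muscle, was at 3163, 2219 and 1862 in the obese mice, against 1091, 725 and 643 in the lean mice, with the mice of each diet in the order that Mt1 gave. The likeness was computed over the libraries that the selection used and is a description.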

How the data were processed

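The deposited table gives, per gene and mouse, a signal made by the authors: reads aligned with STAR to GRCm38, uniquely mapped, assigned with Salmon to Ensembl 79 and divided by a DESeq2 size factor (normalized counts). Libraries were single-end, 50 bases, from a directional kit. The authors' own comparison in 7 further deposited columns (mean signal, log2 fold change and its error, p-value and adjusted p-value, test statistic and ranking score) was not used. Tool versions were not given in the sources used here.

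The values were whole multiples of a single read's value in each library (100% of values, within 0.01 reads), which gave depth. For the 6 mice, log2(normalized count + 1) of genes averaging 10 or more was fitted in R 4.3.3 with limma 3.58.1 (moderated by an intensity trend), without covariates, and called at a Benjamini-Hochberg adjusted p under 0.05. edgeR 4.0.16 and DESeq2 1.42.0 on recovered reads were alternatives, as were a pseudocount of 0.1, other filters and normalizations, a replicate block and leaving out each mouse. The steps were tested on simulated data. Replicate libraries differed by more than sampling noise. Floors (3 reads) cover counting error only. Names came from GENCODE M21 (42462 of 43432 identifiers), and promoters from RefSeq.

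The members and lists were chosen with earlier results of these data known. Named genes were the members, the other tested genes of the families, the gene with the smallest p of each other list, the 3 most like Mt2 and Mt1, and defining markers.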

Additional observations from a re-analysis of the deposited data

How the results depend on the processing

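With 3 mice per diet the number of called genes moved with the test and with single mice. It was 114, and 483 with DESeq2, 87 with edgeR and 0 without a variance trend (1717 at an unadjusted p under 0.05), and it ran from 14 (without lean mouse 2) to 342 (without obese mouse 3) when 1 mouse was left out. Of the 10 genes, 2 were called, 0 without the trend, 3 with DESeq2, and 1 to 3 when 1 mouse was left out, where Mt1 was lost without lean mouse 2, lean mouse 3, obese mouse 1 or obese mouse 2. The log2 fold change of Mt1 (1.24 to 1.66), Mt2 (2.61 to 2.93), Slc30a1 (0.58 to 0.70) and Slc39a14 (0.41 to 0.68) kept its sign in all 15 alternatives. So did that of Mt3, Mtf1 and Slc39a10, which were not called in any of the 15. The sign of Slc39a8 was kept in 11, of Slc39a13 in 13 and of Slc30a4 in 14 alternatives. None of the other SLC30 and SLC39 genes was called in any of them. Called genes of the other lists numbered 2, 14 with DESeq2, 1 with edgeR, 4 with at least 10 in every mouse, 4 with no filter, 0 without the trend and 0 to 13 when 1 mouse was left out. The cause of these moves was not tested. Per kb of all exons, an alternative chosen after seeing the data, lean Mt1 was at 932 and not 2116.

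Replicate numbers name different mice. Same-numbered obese and lean mice deviated together with correlations of 0.12, -0.027 and -0.0039, and not every mouse correlated best with its own number. No pairing by number was therefore seen, but correlations among so few mice cannot exclude a batch shared by number. With the number as a replicate block, 157 genes were called in all, 2 of the 10 genes, 0 of the other SLC30 and SLC39 genes and 8 of the other lists. The block lowered the SE of Mt1 from 0.23 to 0.12 and that of Mt2 from 0.20 to 0.16. It raised that of Slc30a1 from 0.15 to 0.17.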
